A study of Ovis aries with 15 samples.

Results

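Transcripts of 10 regulators of fat and sterol synthesis were followed in the sheep mammary gland between late pregnancy and lactation: SREBF1, SREBF2, SCAP, INSIG1, INSIG2, PPARG, PPARD, NR1H3, THRSP and MLXIPL. The members were chosen by name, as the features of the deposited table that carry these symbols, and all 10 were found among its 24691 features. Mammary parenchyma had been taken by needle biopsy from 2-year-old Romney ewes in their first pregnancy, at day 135 of gestation (SD 2.4) for 9 libraries and at day 15 post partum (SD 1.27) for 6 libraries. Each library was made from 1 pool of RNA, of 3 ewes by the methods. The labels agree on 3 for pools of late pregnancy but name 2 ewes behind each lactation pool. The ewes themselves were all fed alike, and the labels divide them by what their own dams ate in early gestation into HM (ad libitum), MM (maintenance) and LM (sub-maintenance), each followed by maintenance feeding until term. Each of these dam groups holds 3 late pregnancy pools and 2 lactation pools. The methods describe ewes biopsied in late pregnancy and again in lactation, so the same ewe may stand behind pools of both states, and the sources used here do not say which. The p-values measure the spread between pools.

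The lactating gland makes most milk fat from fatty acids that it synthesises or takes up from blood, and several families of transcription factors set how much of the machinery is made. Sterol regulatory element-binding proteins sit in the membrane of the endoplasmic reticulum, bound to SCAP. SCAP senses sterols and escorts the bound proteins to the Golgi for cleavage, while INSIG proteins hold SCAP back when sterols are plentiful. The freed fragment of SREBP-1 (from SREBF1) drives mainly fatty acid genes and that of SREBP-2 (from SREBF2) mainly cholesterol genes, and INSIG1 is itself one of their targets. PPARG, PPARD and the liver X receptor NR1H3 are nuclear receptors for fatty acids or oxysterols that bind DNA together with RXR, ChREBP (from MLXIPL) responds to glucose, and THRSP (Spot 14) is a small protein linked to fatty acid synthesis in milk-making cells.

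Reads counted on genes came to 7597938 to 19823166 a library before birth and 10352962 to 25679416 in lactation. Of the part of these reads used in the tests, mostly reads on exons, 13.7 to 23.4% fell on milk protein genes in late pregnancy but 71.3 to 75.8% after birth. The share of reads left for all other genes was thus smaller in lactation. Between the states, 68.4% of 13345 tested genes were called at an adjusted p under 0.05 in edgeR's quasi-likelihood test, 33.1% higher and 35.2% lower in lactation, and 40.2% had no overlap between the libraries of both states. The median log2 change over all tested genes was -0.03. All reads counted on the 10 members were placed uniquely. Log2 changes are lactation over late pregnancy, and CPM are reads on a gene scaled to a common library total by TMM.

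On the TMM scale, relative to the other genes, the lactating gland held far more transcript of the SREBP brake INSIG1 and more SREBF1, SREBF2 and PPARD. It held slightly more INSIG2, a call that was lost on exon-exon junction reads, and less SCAP. Scaled by library size only, SREBF1, SREBF2, PPARD and INSIG2 were lower in lactation. With TMM, 9 of the 10 members passed the filter on low counts. Of these 5 rose, 1 fell and 3 were not called, against the 68.4% of all tested genes that were called. THRSP, PPARG and NR1H3 were not called, and MLXIPL was too low to be tested. The 5 members whose libraries did not overlap between states were SREBF1, SREBF2, SCAP, INSIG1 and PPARD, against 40.2% of all tested genes. INSIG1 and PPARD were the members called at more than a 2-fold change, against 22.1% of all genes. The median log2 change of the 9 tested members was 0.32.

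**Figure D1:**
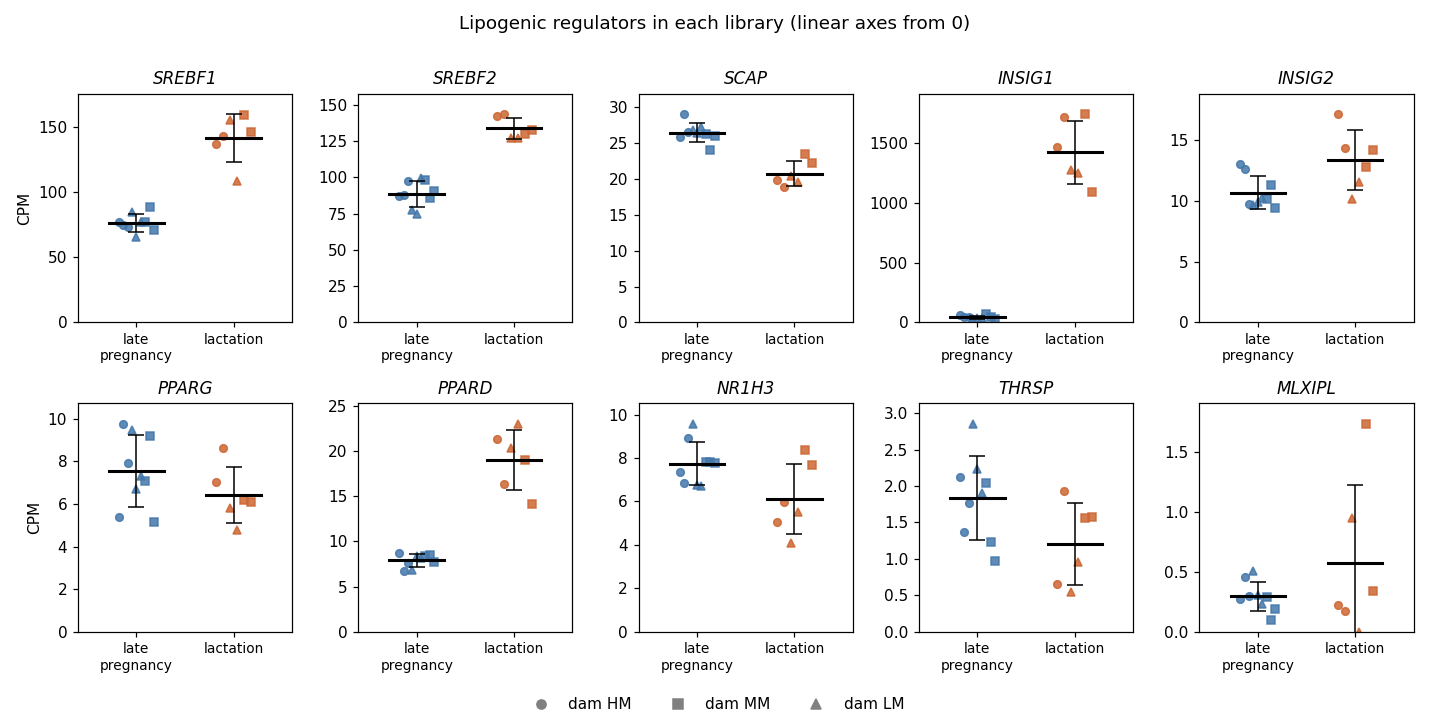
CPM of the 10 members in each library, 1 panel a gene on a linear axis from 0, with late pregnancy on the left (9 libraries) and lactation on the right (6 libraries); marker shapes give the dam group, the line is the mean and the bar 1 SD (that of MLXIPL in lactation is cut off at 0). SREBF1, SREBF2, INSIG1 and PPARD lie higher in every lactation library, SCAP lies lower in every one, and the libraries of the other members overlap.

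SREBF1 encodes SREBP-1 and is annotated with 21 exons on chromosome 11, from 34177118 to 34192649 in the files' coordinates. Its libraries ranged from 65.6 to 88.7 CPM (median 77.1) in late pregnancy and from 109 to 160 CPM (median 145) in lactation. No lactation library came as low as the highest late pregnancy library, and the lowest of the lactation libraries was LM replicate 2. The mean rose from 76.7 ± 6.90 CPM (SD, n = 9) to 142 ± 18.1 CPM (SD, n = 6), a log2 change of 0.89 ± 0.076 (SE, edgeR adjusted p = 2.47e-09), or 1.85-fold.

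SREBF2, the gene of SREBP-2, lies on chromosome 3 from 216882694 to 216922850. It ranged from 74.6 to 99.3 CPM (median 87.6) in late pregnancy and from 127 to 143 CPM (median 132) in lactation. Its states were also fully apart, with a narrower spread in lactation than SREBF1 had. Its mean rose from 88.7 ± 8.85 CPM (SD, n = 9) to 134 ± 7.31 CPM (SD, n = 6), a log2 change of 0.59 ± 0.065 (SE, edgeR adjusted p = 9.94e-08), or 1.51-fold.

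SCAP, the escort and sterol sensor of both SREBPs, was the member that fell. The gene lies on chromosome 19 from 52141746 to 52191197. Late pregnancy libraries held 24.0 to 29.0 CPM (median 26.5) and lactation libraries 18.8 to 23.4 CPM (median 20.1). The gap between the states was narrow, with the highest lactation library (MM replicate 1) just under the lowest of late pregnancy. The log2 change was -0.34 ± 0.060 (SE, edgeR adjusted p = 4.45e-05), from a mean of 26.5 ± 1.30 CPM (SD, n = 9) to 20.7 ± 1.75 CPM (SD, n = 6).

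INSIG1, whose protein holds SCAP in the endoplasmic reticulum when sterols are plentiful, changed more than any other member. It is annotated with 5 exons on chromosome 4 from 116528665 to 116541157. Late pregnancy libraries held 28.5 to 67.8 CPM (median 41.8), on 441 to 1623 reads, and lactation libraries 1089.8 to 1737 CPM (median 1366), on 6541 to 19956 reads. The lowest lactation library thus stood far above the highest library of late pregnancy, also in raw reads. The log2 change was 4.99 ± 0.18 (SE, edgeR adjusted p = 4.88e-15), or 31.8-fold, from 44.7 ± 13.5 CPM (SD, n = 9) to 1419 ± 264 CPM (SD, n = 6). It was the 50th largest rise among the 13345 tested genes. Ranked by RPKM, INSIG1 moved from a median rank of 2879 in late pregnancy (best 1746, worst 4126) to 119.5 in lactation (best 89, worst 141) among the 24691 features.

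INSIG2, the paralog that also holds back SCAP, changed far less. The gene lies on chromosome 2 from 182230018 to 182250132. Its libraries held 9.44 to 13.1 CPM (median 10.2) in late pregnancy and 10.2 to 17.1 CPM (median 13.5) in lactation. The states overlapped, and the mean went from 10.7 ± 1.34 CPM (SD, n = 9) to 13.4 ± 2.44 CPM (SD, n = 6). The log2 change of 0.32 ± 0.11 (SE) passed the threshold (edgeR adjusted p = 0.0129), but on exon-exon junction reads it was 0.18 (edgeR adjusted p = 0.180), and it was also lost under upper quartile scaling (0.17).

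PPARD, the ubiquitous receptor of the PPAR family, was the other member with more than a 2-fold change. It lies on chromosome 20 from 9479053 to 9492510 and has 2 annotated transcripts, whose reads were counted together. Late pregnancy libraries held 6.67 to 8.72 CPM (median 8.17) and lactation libraries 14.1 to 23.0 CPM (median 19.7). All 6 lactation libraries lay above all 9 of late pregnancy. The mean rose from 7.90 ± 0.737 CPM (SD, n = 9) to 19.0 ± 3.30 CPM (SD, n = 6), a log2 change of 1.25 ± 0.098 (SE, edgeR adjusted p = 7.51e-10), or 2.38-fold.

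PPARG, the receptor best known from fat cell differentiation, did not pass the test. It lies on chromosome 19 from 56552358 to 56597798. Its libraries held 5.17 to 9.78 CPM (median 7.34) in late pregnancy and 4.76 to 8.62 CPM (median 6.13) in lactation, so the states overlapped over most of their range. The log2 change was -0.24 ± 0.16 (SE, edgeR adjusted p = 0.189).

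NR1H3, the liver X receptor alpha that is activated by oxysterols and induces SREBF1 in liver, was not called either. It lies on chromosome 15 from 75355906 to 75368181. Late pregnancy libraries held 6.69 to 9.58 CPM (median 7.76) and lactation libraries 4.07 to 8.35 CPM (median 5.75). The states overlapped, with both MM libraries at the top of lactation. The log2 change was -0.30 ± 0.14 (SE, edgeR adjusted p = 0.0633). The call depended on single libraries and on the reads counted. It passed without lactation MM replicate 1 (-0.43), without lactation MM replicate 2 (-0.37), without late pregnancy LM replicate 3 (-0.32) and on junction reads (-0.40, edgeR adjusted p = 0.0245).

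THRSP lies on chromosome 21 from 17376673 to 17381686 and was close to the lower limit of what these libraries measure. It had 15 to 79 reads a library in late pregnancy and 3 to 18 in lactation. In CPM that was 0.97 to 2.86 (median 1.90) in late pregnancy and 0.543 to 1.93 (median 1.26) in lactation. The states overlapped, and the log2 change of -0.58 ± 0.28 (SE) was not called (edgeR adjusted p = 0.0750). It passed when lactation HM replicate 2 (-0.72), late pregnancy MM replicate 2 (-0.64) or late pregnancy MM replicate 3 (-0.66) was left out.

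MLXIPL, the gene of the glucose-responsive factor ChREBP, lies on chromosome 24 from 33537995 to 33556535 and had 88 reads in all 15 libraries together. Late pregnancy libraries had 2 to 14 reads, or 0.099 to 0.506 CPM (median 0.293). Lactation libraries had 0 to 20 reads, or 0 to 1.74 CPM (median 0.279), and most of them came from MM replicate 1 with 20 reads and LM replicate 1 with 7. A count of 0 in lactation LM replicate 2 allows up to 3 reads, or 0.571 CPM, as far as counting error alone goes. No difference between the states was detectable at this depth. Without the filter on low counts its log2 change was 1.15 (edgeR adjusted p = 0.0523).

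The direction of a member's change depended on how the libraries were scaled. Scaled by library size only, with no TMM, the median log2 change of all genes was -1.94, and 2.70% of called genes were higher against 48.4% with TMM. On that scale SREBF1 (-1.01), SREBF2 (-1.31), PPARD (-0.65) and INSIG2 (-1.58) were lower in lactation, while INSIG1 stayed higher (3.102) and SCAP lower (-2.25). Relative to the median of all genes the members hardly moved. A change of scaling shifts every gene by nearly the same amount, so this is arithmetic and not a test of the members. SREBF1 lay 0.92 above that median with TMM and 0.92 above it with library size only, and INSIG1 lay 5.02 and 5.04 above it. Upper quartile scaling moved the median of all genes to -0.18 and the share of higher calls to 36.3%, and kept the direction of all 9 tested members. A rise of SREBF1, SREBF2, PPARD or INSIG2 is given here relative to the other genes of the gland, not per unit of total RNA. In RNA from whole tissue, fewer cells of a type and less RNA per cell cannot be told apart.

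Ratios between members of the same library do not depend on that scaling. They were taken from RPKM, which divides reads by exon length, and 10 ratios were tested by an exact two-sided permutation test over all assignments of the 15 libraries to the states, with p adjusted over the 10. The 0.0002 reached by 7 of them is the smallest p this test can give. Those 7 had no overlap between states and an adjusted p of 0.000285 each.

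The ratio of INSIG1 to INSIG2 was 1.23 to 2.71 (median 1.50) in late pregnancy libraries and 31.2 to 55.2 (median 45.9) in lactation libraries. INSIG1 thus went from slightly above its paralog to far above it. INSIG1 over SCAP, the brake over the escort it binds, went from a median of 1.96 to 84.6, a log2 difference of 5.38. SREBF1 over INSIG1 moved from a median of 1.40 (range 0.859 to 2.01) to 0.0699 (range 0.0629 to 0.101). The SREBP message therefore outnumbered that of its brake in most late pregnancy libraries and in no lactation library.

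Both SREBP genes gained on their escort. SREBF1 over SCAP had a median of 2.63 in late pregnancy (range 2.30 to 3.42) and of 6.37 in lactation (range 5.15 to 7.10). SREBF2 over SCAP went from a median of 2.30 to 4.21, a log2 difference of 0.95. SREBF1 over SREBF2 moved less, from a median of 1.20 to 1.47 with overlap between states, a log2 difference of 0.28 (exact adjusted p = 0.0225), and it missed the threshold without lactation LM replicate 1 (0.24) or lactation MM replicate 1 (0.24).

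Among the nuclear receptors, PPARG over PPARD fell from a median of 0.837 (range 0.577 to 1.37) to 0.305 (range 0.193 to 0.491), a log2 difference of -1.48. PPARG and PPARD were thus at similar levels before birth, and PPARD was the more abundant in every lactation library. THRSP over SREBF1 fell from a median of 0.0632 to 0.0238. NR1H3 over PPARG differed by -0.14 (exact adjusted p = 0.487) and MLXIPL over SREBF1 by -0.52 (exact adjusted p = 0.446), and the first of these ratios had similar medians of 0.714 and 0.663.

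**Figure D2:**
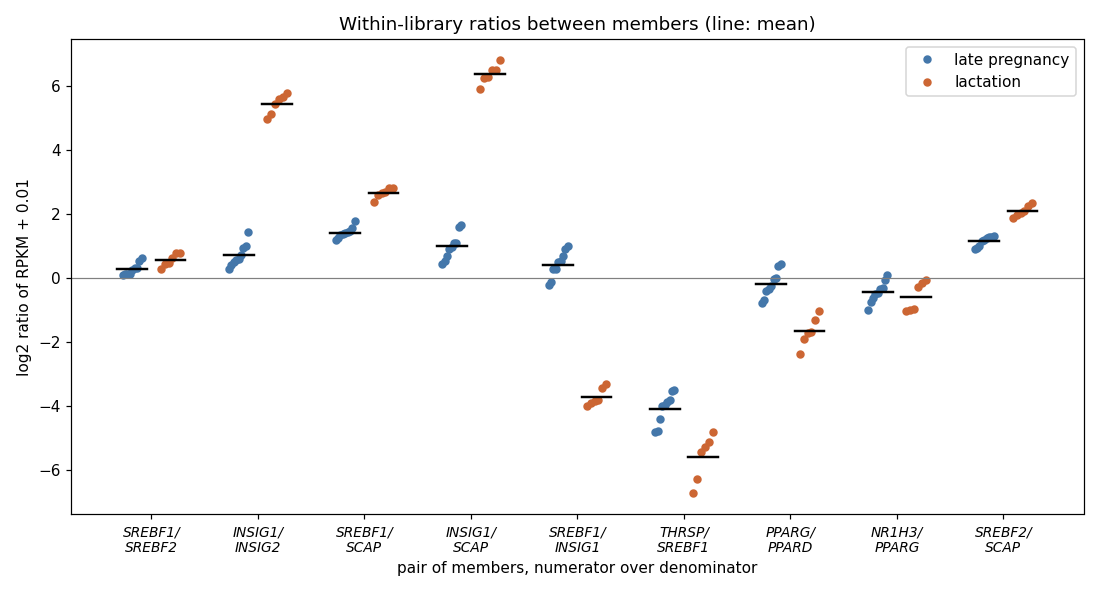
Log2 ratio of RPKM + 0.01 between pairs of members in each library, blue for late pregnancy (9 libraries) and orange for lactation (6 libraries), with the mean as a black line. The pairs with INSIG1 are furthest apart between the states (log2 difference 4.71 for INSIG1 over INSIG2), and SREBF1 over SREBF2 and NR1H3 over PPARG overlap.

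Levels of the members can be compared within a state only per length of transcript, so their order was taken from RPKM. In late pregnancy the mean RPKM fell from SREBF1 (30.6) through SREBF2 (25.3), INSIG1 (23.6), INSIG2 (13.9), SCAP (11.4), PPARD (8.58), PPARG (7.66), NR1H3 (5.52) and THRSP (1.87) to MLXIPL (0.184). Of the 9 pairs of neighbours in this order, 7 differed in an exact sign-flip permutation test over the 9 libraries, with p adjusted over the 18 neighbour pairs of both states. SREBF2 and INSIG1 did not (adjusted exact p = 0.293), nor did PPARD and PPARG (adjusted exact p = 0.268).

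In lactation INSIG1 led with a mean RPKM of 219 ± 46.9 (SD, n = 6), and SREBF1 (16.5), SREBF2 (11.1), PPARD (6.01), INSIG2 (5.09), SCAP (2.59), PPARG (1.89), NR1H3 (1.27), THRSP (0.357) and MLXIPL (0.107) followed. PPARD stood above SCAP, the reverse of its place in late pregnancy. With 6 libraries the smallest exact p possible is 0.0313, and 6 of 9 neighbours differed. PPARD and INSIG2 did not (adjusted exact p = 0.293), and SCAP and PPARG (adjusted exact p = 0.075) and THRSP and MLXIPL (adjusted exact p = 0.075) missed the threshold. RPKM are not scaled for the milk protein reads, so values of both states are not compared here.

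Reads on the gene but outside its annotated exons were tested in the same way as a second readout, since they come largely from unspliced transcript, though unannotated exons and antisense RNA would be counted too. On these intron reads 58.0% of 10344 tested genes were called, 29.0% higher and 29.0% lower. Of the 10 members 8 could be tested, and 4 were called, all higher in lactation: SREBF1 (log2 change 0.94 ± 0.10, SE), SREBF2 (0.91 ± 0.11, SE), INSIG1 (5.62 ± 0.18, SE) and PPARD (0.86 ± 0.17, SE). The 4 members that rose on exons without overlap thus also rose on introns. SCAP (0.21, edgeR adjusted p = 0.314), INSIG2 (-0.18, edgeR adjusted p = 0.379), PPARG (-0.28, edgeR adjusted p = 0.362) and NR1H3 (0.05, edgeR adjusted p = 0.834) were not called.

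Reads across exon-exon junctions come from spliced RNA, and on these 64.3% of 10748 tested genes were called, 31.3% higher and 33.0% lower. SREBF1 (0.83), SREBF2 (0.63), INSIG1 (5.14) and PPARD (1.20) rose and SCAP fell (-0.40), close to the changes on all exon reads. NR1H3 fell on junction reads and INSIG2 was not called on them, so 6 of the 8 members tested on junctions were called.

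**Figure D3:**
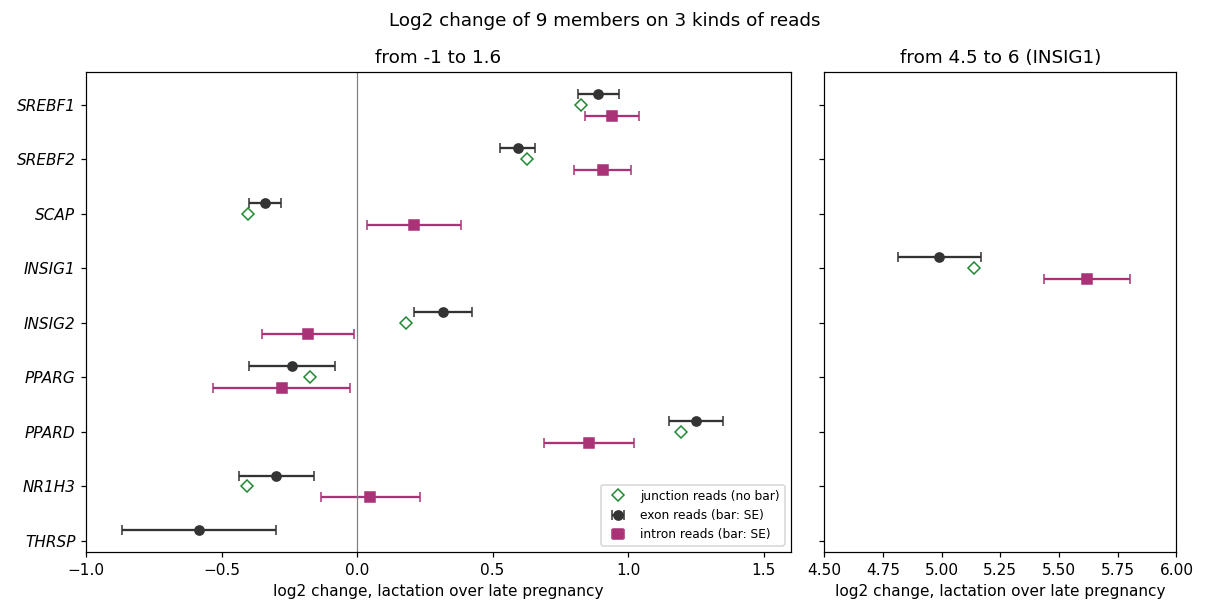
Log2 change of 9 members, lactation over late pregnancy, on exon reads (circles), exon-exon junction reads (diamonds, no error bar) and intron reads (squares), with bars of 1 SE; the right panel continues the axis for INSIG1. SCAP lies at -0.34 on exons and 0.21 on introns, and INSIG2 at 0.32 and -0.18. With library size as the only scaling SREBF1, SREBF2, INSIG2 and PPARD turn negative on exons.

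The share of a gene's reads that lay outside exons changed for 4 of 9 tested members (exact permutation test over the same assignments, p adjusted over 9 genes). This share was not tested for other genes, so a shift common to all genes cannot be told apart. For INSIG1 it went from 11.6 ± 1.53% (SD, n = 9) to 17.6 ± 1.03% (SD, n = 6; exact adjusted p = 0.0018), with the lactation libraries above all others. For SCAP it went from 8.42 ± 1.55% to 12.3 ± 1.63% (exact adjusted p = 0.0018), and for SREBF2 from 8.69 ± 0.942% to 11.1 ± 1.23% (exact adjusted p = 0.0048). INSIG2 moved the other way, from 21.1 ± 2.74% to 16.4 ± 3.35% (exact adjusted p = 0.0283).

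SREBF1 was at 11.9% and 12.7% and did not pass (exact adjusted p = 0.262). PPARG (15.3% and 16.8%, exact adjusted p = 0.500), PPARD (26.5% and 22.7%, exact adjusted p = 0.235) and NR1H3 (32.6% and 38.0%, exact adjusted p = 0.0838) did not pass either. Over the 9801 genes tested on both kinds of reads, the intron log2 change less the exon log2 change had a median of -0.03. Each kind of reads was scaled by TMM on its own, which by itself brings that median near 0. The same difference, with that median not taken off, was 0.63 for INSIG1, 0.55 for SCAP, 0.31 for SREBF2 and -0.50 for INSIG2. For the members whose share did not pass it was 0.35 for NR1H3, -0.39 for PPARD, 0.05 for SREBF1 and -0.04 for PPARG.

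**Figure D4:**
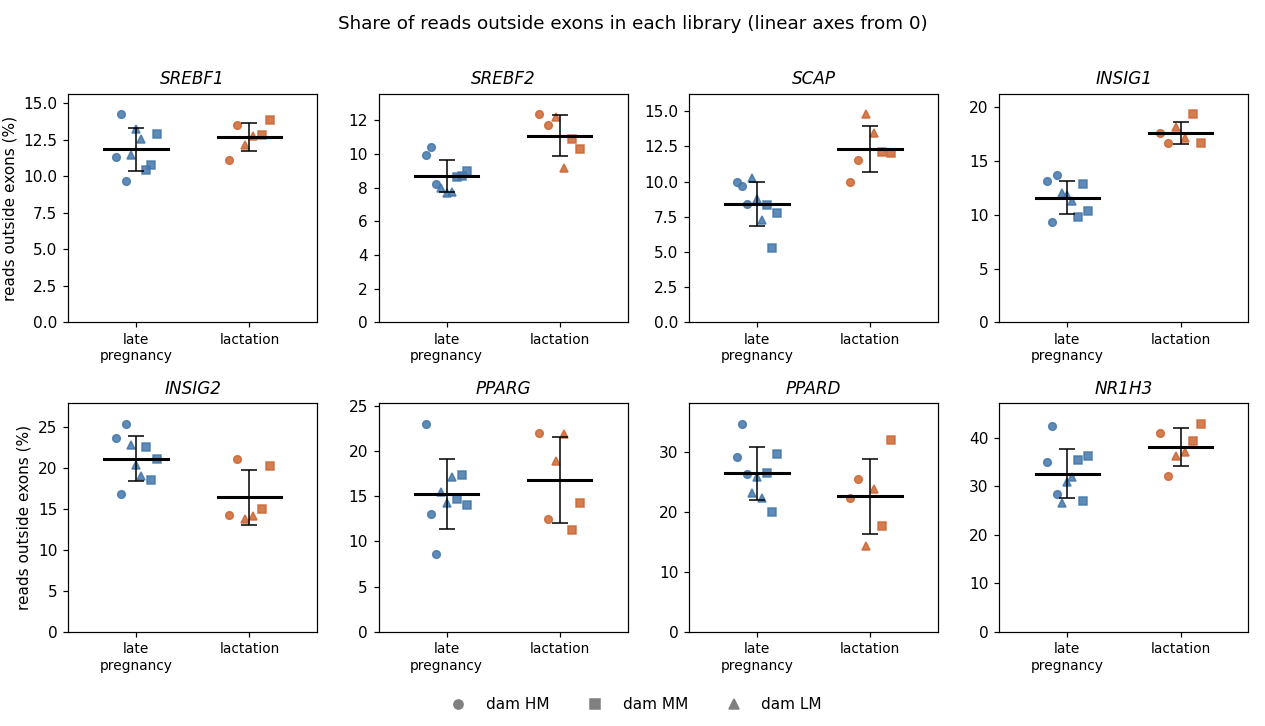
Share of the reads on a gene that lay outside its annotated exons, in %, in each library for the 8 members with enough such reads, with late pregnancy (9 libraries) on the left and lactation (6 libraries) on the right of each panel; lines are means and bars 1 SD. INSIG1 is apart between the states, around 11.6% and 17.6%, and SREBF1 overlaps fully, around 11.9% and 12.7%.

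What the dams of the ewes had eaten made no detectable difference to any member. Over the 9 late pregnancy libraries 0 of 13747 genes were called (571 had an unadjusted p under 0.05), over both states 0 of 13345 (687 unadjusted) and for the interaction of state and dam group 0 of 13345 (876 unadjusted), all in edgeR. The percent called was 0.0 in each, members included. The members closest to a call over both states were INSIG2 (unadjusted p = 0.0143, edgeR adjusted p = 0.872) and INSIG1 (unadjusted p = 0.0594, edgeR adjusted p = 0.987).

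INSIG2 was at 14.4 and 17.1 CPM in the HM libraries of lactation, 12.8 and 14.2 CPM in MM and 10.2 and 11.6 CPM in LM. In late pregnancy its HM libraries ranged from 9.75 to 13.1 CPM, MM from 9.44 to 11.3 CPM and LM from 9.69 to 10.2 CPM. The order in lactation was thus HM, MM and LM without overlap, while the late pregnancy libraries overlapped. In the column names every LM library carries lane 8, and the HM libraries of lactation carry lane 7. HM and LM thus cannot be told apart from that lane label in lactation. INSIG1 in lactation was at 1461 and 1711 CPM in HM, 1089.8 and 1737 CPM in MM and 1245 and 1270 CPM in LM, and in late pregnancy its LM libraries (31.8 to 41.4 CPM) lay below the HM libraries (45.9 to 64.0 CPM) and within the MM libraries (28.5 to 67.8 CPM).

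For the interaction, THRSP had the lowest unadjusted p of the members (0.0421, edgeR adjusted p = 0.740). Its LM libraries were at 1.90 to 2.86 CPM in late pregnancy and at 0.543 and 0.952 CPM in lactation, and its MM libraries at 0.97 to 2.05 CPM and at 1.57 and 1.58 CPM. The log2 change between states in LM less that in MM was -1.80. With 2 or 3 pools a group, a missed threshold does not show that the groups were alike.

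Within a state, no correlation between the members' levels passed the threshold after adjustment. Of 45 pairs in each state, 3 in late pregnancy and 2 in lactation had an exact permutation p under 0.05 before adjustment, and none after (smallest adjusted exact p 0.451 and 0.125). The strongest was SREBF2 with PPARG over the 6 lactation libraries (Pearson's r = 0.90, exact permutation p = 0.00278, adjusted 0.125; Spearman's rho = 0.94, exact permutation p = 0.0167, adjusted 0.375). Without the 2 libraries farthest from the median of SREBF2 it was r = 0.68. The 6 lactation libraries have too few orderings for a single pair to pass after adjustment over 45 pairs. The lack of calls in lactation therefore does not show that the members were uncorrelated.

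The genes most like a member were those with the highest Pearson's r of log2 CPM over the 15 libraries after the mean of each state was taken out, among 9180 genes. These values are the extremes of a long list, from libraries that share their depth, and describe only these pools. For INSIG1 they were SQLE (r = 0.85) and IDI1 (r = 0.84), both enzymes of cholesterol synthesis. For SREBF1 they were SEPT4 (r = 0.89) and INTS5 (r = 0.85), for PPARG LIG3 (r = 0.84) and SDPR (r = 0.84), and for THRSP FAM206A (r = 0.79) and NAA35 (r = 0.78). The remaining tested members were added after their values were seen. For SREBF2 they were LOC101113583 (r = 0.85) and MSMO1 (r = 0.83), a sterol demethylation enzyme, for SCAP GNPDA1 (r = 0.87) and ARHGEF3 (r = 0.86), and for INSIG2 PMP22 (r = 0.91) and SEH1L (r = 0.86). For PPARD they were FAT2 (r = 0.83) and POFUT1 (r = 0.82), and for NR1H3 CTU2 (r = 0.94) and LSM5 (r = 0.86).

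Genes that act with the members were described from 8 lists, beside the 33.1% higher, 35.2% lower and median of -0.03 over all tested genes. For SREBP processing and turnover, all 23 genes were tested, and 16 rose, 6 fell and 1 was not called, with a median log2 change of 0.28 (-1.62 with library size only, where all genes have a median of -1.94). The protease genes that cut SREBPs in the Golgi moved apart. MBTPS1 (site-1 protease) fell from 53.1 to 44.2 CPM (log2 change -0.25 ± 0.057, SE, edgeR adjusted p = 0.000517) and MBTPS2 (site-2 protease) rose from 9.16 to 16.3 CPM (0.83 ± 0.082, SE, edgeR adjusted p = 2.75e-08).

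The largest changes of that list were in genes of vesicle transport and protein quality control that serve many cargoes. SAR1B, a GTPase of the COPII coat that carries SCAP and SREBP out of the endoplasmic reticulum, rose from 12.2 to 42.6 CPM (log2 change 1.81). SYVN1, a ubiquitin ligase of the endoplasmic reticulum (log2 change 1.67), SURF4, a cargo receptor (1.26), and HSPA5, the chaperone BiP (1.19), rose too. With library size only MBTPS2 (-1.08), SYVN1 (-0.24), SURF4 (-0.65), SAR1B (-0.10) and HSPA5 (-0.72) turn lower. SCAP itself thus fell while 16 of the 23 genes around it rose on the TMM scale.

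Among sterol synthesis and uptake targets of SREBPs, 22 of 24 genes were found and 21 tested. Of these 20 rose, 0 fell and 1 (ACAT2, log2 change -0.39, edgeR adjusted p = 0.0570) was not called, with a median of 1.98 (0.09 with library size only, against the -1.94 of all genes). DHCR7, an enzyme of late cholesterol synthesis, rose by 3.48, MSMO1 by 2.97 and IDI1 by 2.60 on the log2 scale. The change of INSIG1 on the log2 scale (4.99) was above that of each of the 21 tested genes of this list.

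Of 19 fatty acid and triacylglycerol targets found, 18 were tested, and 15 rose, 1 fell and 2 were not called, with a median of 2.55 (0.64 with library size only). The gene that fell was ACLY, which makes acetyl-CoA from citrate, a minor route in ruminants (16.7 to 12.6 CPM, log2 change -0.44, edgeR adjusted p = 0.00358). ACACA and FASN, the enzymes that build fatty acids, rose from 104 to 666 CPM (2.67) and from 3348 to 12567 CPM (1.91; 0.01 with library size only), and SCD, which desaturates them, rose from 517 to 3235 CPM (2.65). LPIN1, a phosphatidate phosphatase, went from 1.80 to 189 CPM (6.74), FADS2 from 0.697 to 27.8 CPM (5.26) and FADS1 from 3.64 to 54.9 CPM (3.91), the latter both fatty acid desaturases. PNPLA3 went from 0.0962 ± 0.102 CPM (SD, n = 9) to 37.4 ± 10.7 CPM (SD, n = 6). It passed the filter on low counts through the lactation libraries, and with a late pregnancy level near 0 its fitted log2 change of 8.43 is not a precise size. The changes of SREBF1 (0.89) and SREBF2 (0.59) were smaller than the medians of both target lists.

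Of the partners and coregulators of PPARs and LXRs, 19 of 21 were found by symbol, which left out PPARA and RXRA. Of 18 tested, 12 rose, 4 fell and 2 were not called, with a median of 0.25 (-1.65 with library size only). RXRB, a DNA-binding partner of these receptors, fell slightly (-0.25 ± 0.076, SE, edgeR adjusted p = 0.00696), and NR1H2, the liver X receptor beta, rose (0.53 ± 0.060, SE, edgeR adjusted p = 1.80e-07; -1.38 with library size only). NR1H2 rose from 20.7 to 29.7 CPM while NR1H3 was at 7.73 and 6.11 CPM on average.

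The coactivators moved in both directions. PPARGC1A, a coactivator known from oxidative metabolism, fell from 1.30 to 0.415 CPM (-1.80 ± 0.44, SE, edgeR adjusted p = 0.00131), and PPARGC1B fell from 4.003 to 3.11 CPM (-0.42 ± 0.17, SE, edgeR adjusted p = 0.0389), a call that was lost in 5 of the 15 fits that left out 1 library. The steroid receptor coactivators NCOA2 (1.43) and NCOA3 (1.31) and the corepressor NRIP1 (0.91) rose, and CEBPA, a factor that acts with PPARG in fat cells, fell (-0.94). With library size only NCOA2 (-0.48), NCOA3 (-0.60) and NRIP1 (-0.998) turn lower.

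PPAR targets went both ways. Of 28 genes 26 were found, 1 of which (UCP3) had no read in any library, and of 19 tested 6 rose, 10 fell and 3 were not called, with a median of -0.28 (-2.18 with library size only), against 33.1% of all genes called higher and 35.2% called lower. The risers were thus near the share of all genes. LPL, the lipase that releases fatty acids from lipoproteins for milk fat, rose from 12.7 to 1309 CPM (6.69 ± 0.20, SE, edgeR adjusted p = 4.20e-16), FABP3, a fatty acid carrier, by 4.66, CIDEA, a lipid droplet protein, by 3.99 and CPT1B by 3.94 on the log2 scale. Chosen after their values were seen, CPT1A (-2.29), HADHA (-2.27), HADHB (-2.24) and UCP2 (-2.12), genes of fatty acid entry into mitochondria, beta-oxidation and the inner membrane, had the lowest log2 changes. PPARG and PPARD share most of these targets, so the list does not tell them apart.

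The LXR targets listed were mostly lower. Of 12 tested genes 1 rose, 7 fell and 4 were not called, with a median of -0.94 (-2.85 with library size only), against 35.2% of all genes called lower. The gene that rose was NR1H2, itself a liver X receptor and also counted among the partners and coregulators above. The cholesterol exporters ABCA1 (25.2 to 5.30 CPM, log2 change -2.26 ± 0.18, SE, edgeR adjusted p = 6.49e-10) and ABCG1 (2.59 to 0.814 CPM, -1.67 ± 0.19, SE, edgeR adjusted p = 2.22e-07) fell. MYLIP, a ubiquitin ligase, fell by 1.49 and PLTP, a phospholipid transfer protein, fell by 1.25 on the log2 scale. NR1H3 itself was not called (-0.30). SREBF1, which NR1H3 induces in liver, was not in this list and rose (0.89, or -1.01 with library size only). The direction thus holds for the genes listed only. Markers of macrophages, cells rich in LXR targets, moved the same way, with 5 of 8 lower, 1 higher, a median of -0.71 and a sum of 164 to 211 CPM in late pregnancy and 92.1 to 129 CPM in lactation. The part of macrophages in the fall of the listed LXR targets was not tested.

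Of the MLX family and carbohydrate response targets, 15 of 18 were found and 12 tested, with 5 higher, 3 lower and 4 not called and a median of 0.23 (-1.68 with library size only). MLX, the obligate partner of ChREBP, went from 62.4 to 77.0 CPM (0.30 ± 0.056, SE, edgeR adjusted p = 9.07e-05; -1.61 with library size only). MLXIP (MondoA), the paralog of MLXIPL, was at 8.37 and 9.81 CPM (0.22, edgeR adjusted p = 0.0850) and passed without late pregnancy LM replicate 3 (0.25). MYC (-1.80), MNT (-1.41) and KLF10 (-1.27) fell and MXD1 rose (0.96; -0.95 with library size only). The partner MLX and the paralog MLXIP were thus readily measured where MLXIPL had few reads.

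For THRSP partners and hormone inputs, 19 of 20 genes were found and 18 tested, with 10 higher, 1 lower (NFYB, -0.58) and 7 not called and a median of 0.17 (-1.75 with library size only). MID1IP1, the paralog and partner of THRSP, was at 2.23 and 3.13 CPM (0.43 ± 0.19, SE, edgeR adjusted p = 0.0471), and that call was lost in 9 of the 15 fits that left out 1 library. The thyroid hormone receptor THRB (1.29; -0.61 with library size only), the thyroxine-activating deiodinase DIO2 (4.88), the insulin receptor substrate IRS1 (2.08) and the AMPK subunit PRKAA2 (1.25; -0.66 with library size only) had the largest log2 changes and rose. DIO2 went from 1.88 to 56.1 CPM while THRSP, a gene first described as thyroid hormone-responsive, was not called.

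**Figure D5:**
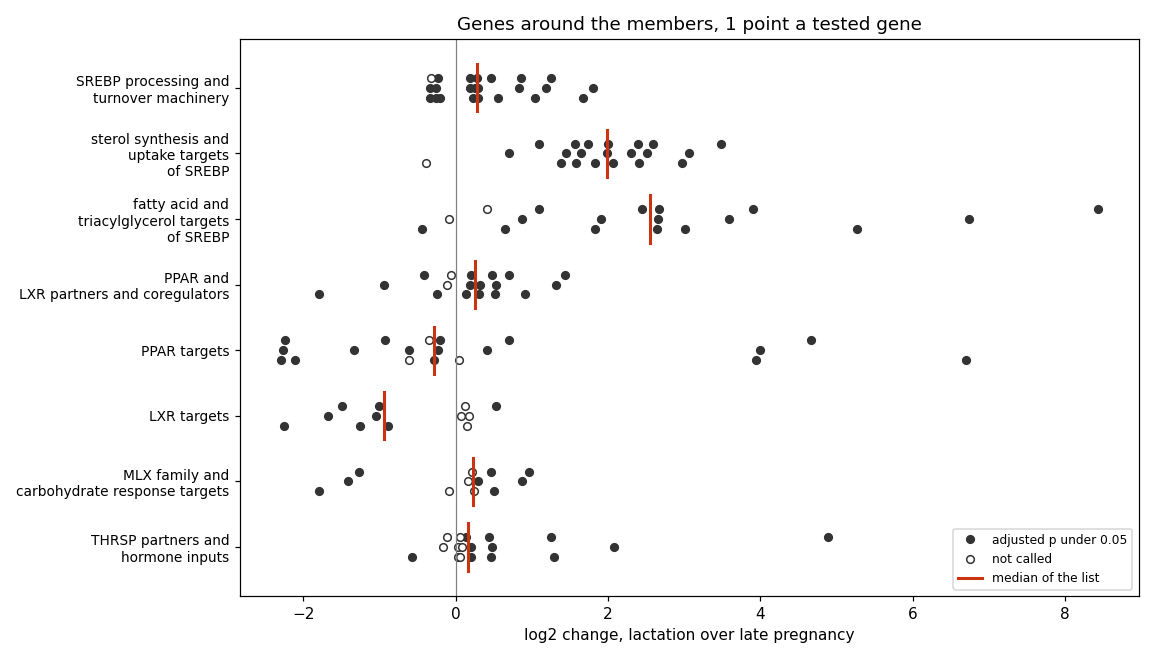
Log2 change of the tested genes of 8 lists, lactation over late pregnancy with TMM scaling, 1 point a gene, filled where called at an adjusted p under 0.05, with the median of each list as a red line. Medians range from -0.94 for LXR targets to 2.55 for fatty acid and triacylglycerol targets of SREBP; with library size only they range from -2.85 to 0.64.

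Markers of the cell types in a mammary biopsy moved with the state too. The luminal epithelial list was measured in every library (8 of 8 tested, 4 higher and 2 lower), and its summed level was 1761 to 2174 CPM in late pregnancy and 2495 to 2745 CPM in lactation. The sum of 7 myoepithelial genes overlapped (558 to 632 and 531 to 786 CPM). Fibroblast genes (5 of 7 lower) summed to 1326 to 2120 and 628 to 1017 CPM, endothelial genes (4 of 6 lower) to 204 to 275 and 145.6 to 203 CPM and lymphocyte genes (5 of 5 tested lower) to 30.2 to 44.9 and 10.3 to 14.7 CPM.

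Macrophages, whose markers were lower in sum as given with the LXR targets, express NR1H3, and fat cells express PPARG and THRSP. The adipocyte list (3 of 7 tested higher, 0 lower) summed to 289 to 519 and 840 to 952 CPM, with a median log2 change of 0.05. Most of the gain in that sum was CIDEA, which milk-making cells also express (29.0 to 462 CPM), and 2 of the 3 risers, CIDEA and GPD1, are also in the target lists above. ADIPOQ, the adipokine that marks fat cells, was at 10.1 and 7.53 CPM (log2 change -0.35, edgeR adjusted p = 0.347). FABP4 was at 322 and 333 CPM (0.05, edgeR adjusted p = 0.725). Both are among the 4 tested genes that were not called and were picked after their values were seen. The remaining riser is in none of those target lists, and whether fat cell content changed was not tested. No marker found was at 0 in all libraries, and the part of these cell types in the values of PPARG, NR1H3, THRSP and SCAP was not tested.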

How the data were processed

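RNA of 9 late pregnancy and 6 lactation pools was sequenced as 100 bp paired-end reads on an Illumina instrument. The authors mapped them to the sheep genome in CLC Genomics Workbench (version not given in the sources used here) and combined both lanes of a library. The build is Oar_v3.1 in the submitters' processing notes, while the methods name another version, and coordinates are those of the deposited table. The deposited counts are reads on exons, on whole genes, on exon-exon junctions and on exon-intron boundaries, in all and uniquely placed, not normalized. The RPKM were computed by the authors per kilobase of exon and total of reads on genes, and recomputing them gave the deposited values within 1.88e-06 of their size. The normalized signal the authors deposited is RPKM after quantile normalization over the 15 libraries. The deposited fold changes and p-values of the authors' own Baggerly test were not used.

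Exon reads (whole-gene reads for 5583 features without an annotated transcript) were tested in edgeR 4.0.16 under R 4.3.3 with filterByExpr by state, TMM and the quasi-likelihood F-test of lactation against late pregnancy, without covariates, and p-values were adjusted by Benjamini-Hochberg over all tested genes. Dam nutrition was tested in late pregnancy, over both states with state as a term, and as interaction. Intron reads are whole-gene less exon reads. Ratios and orders used log2(RPKM + 0.01), correlations log2(CPM + 1). Alternatives used limma 3.58.1 and DESeq2 1.42.0. Exact tests enumerated all assignments, signs or orderings in numpy 2.4.6, with ranks from scipy 1.17.1. The edgeR tests of state and of dam group in late pregnancy were checked on simulated counts. Those counts had few changed genes and no shift in milk protein reads, so they do not check the scaling. The other tests were not simulated. Members, gene lists and tests were chosen with earlier results of these data known. Genes named from a list are the members' direct partners and the 4 called genes with the largest change among those with a mean CPM of 1 or more; 2 genes were named by likeness to a member. ACAT2, ACLY, NFYB, UCP3, GPD1, ADIPOQ and FABP4 were named after their values were seen. Some genes that this rule names are counted in their lists but not reported here. Same-numbered pools of both states did not clearly deviate together (correlations -0.05 to 0.12), and no pairing was used. These correlations cannot exclude that such pools share ewes. Reads carry no molecular identifiers, so the limit given for a count of 0 covers counting error only.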

Additional observations from a re-analysis of the deposited data

How the results depend on the processing

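SREBF1, SREBF2, SCAP, INSIG1 and PPARD kept their direction and their call under every alternative run except library size as the only scaling, which turned SREBF1 (-1.01), SREBF2 (-1.31), PPARD (-0.65) and INSIG2 (-1.58) and called THRSP (-2.47), PPARG (-2.14) and NR1H3 (-2.20). It also turned MBTPS2 (-1.08), SYVN1 (-0.24), SURF4 (-0.65), SAR1B (-0.10), HSPA5 (-0.72), NR1H2 (-1.38), NCOA2 (-0.48), NCOA3 (-0.60), NRIP1 (-0.998), MLX (-1.61), MLXIP (-1.69), MXD1 (-0.95), MID1IP1 (-1.46), THRB (-0.61) and PRKAA2 (-0.66). Higher and lower calls on that scale were 0 and 22 for SREBP processing, 8 and 8 for sterol targets, 9 and 6 for fatty acid targets, 0 and 18 for partners and coregulators, 4 and 15 for PPAR targets, 0 and 12 for LXR targets, 0 and 12 for the MLX family and 2 and 16 for THRSP partners. INSIG2 lost its call under upper quartile scaling (0.17), limma on quantile-normalized RPKM (0.21 with a pseudocount of 0.01 and 0.20 with 1), a filter of 10 reads in every library (0.23) and junction reads (0.18), and, with fewer libraries, within lane 7 (0.30) and lane 8 (0.30) of the column names. NR1H3 became a call under upper quartile scaling (-0.45), limma (-0.31 and -0.24), no filter (-0.35), the filter of 10 reads (-0.38), junction reads (-0.40) and dam nutrition as a covariate (-0.33), as did THRSP (-0.73) and PPARG (-0.39) under upper quartile scaling. Leaving out each library in turn gave 6 to 7 called members and -0.72 to -0.42 for THRSP, -0.43 to -0.20 for NR1H3 and 0.24 to 0.34 for the ratio of SREBF1 to SREBF2, while the intron change of NR1H3 turned negative without lactation MM replicate 1 (-0.11) or 2 (-0.09). With a pseudocount of 0.1 the ratio of MLXIPL to SREBF1 turned to 0.29. The sources used here do not say whether same-numbered pools share ewes. With the replicate block 8464 genes were called against 9122, 6 members among them, MLXIP passed (0.33) and MID1IP1 did not (0.39). The junction reads and the lanes were added after the data were seen, and the causes of these shifts were not tested. Depth limits THRSP (3 to 18 reads in lactation) and MLXIPL (0 to 20) most.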
